A study of Mus musculus with 9 samples.

Results

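Extracellular vesicles from 2 cell sources were compared, as 1 treatment, with a PBS control in mice with liver injury from APAP (acetaminophen), and the question was which changes in liver CD11b+ cells the sources have in common. The comparison set 6 vesicle samples against 3 PBS samples, which are all 9 samples of the series. APAP was injected intraperitoneally in every group. The vesicles followed 8 h later by the intravenous route, and livers were taken 48 h after APAP. The PBS group (3 samples) had PBS as its treatment, the HEK-EV group (3 samples) had SIRP-EV from HEK cells, and the MSC-EV group (3 samples) had SIRP-EV from MSC. The 2 vesicle groups had equal weight in the pooled difference, though a source with larger differences from PBS can still dominate it. Livers were dissociated into single cells before CD11b+ cells were isolated, and the RNA was sequenced in bulk. A group without APAP, or with vesicles that lack SIRP, was not among the 9 samples analysed here, so an effect of SIRP and an effect of vesicles as such cannot be told apart. The labels used here give no strain, sex or age of the mice, and they do not say that the 3 samples of a group came from separate animals. The p-values therefore measure the spread between these samples, which may be technical.

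CD11b is carried by monocytes, neutrophils and many macrophages, the cells that enter the liver after APAP kills hepatocytes and that later clear the debris. Immediate early genes are switched on within minutes of a signal, before new protein is made, and several of them encode the subunits of AP-1, a dimeric transcription factor built from Fos, Jun and ATF proteins. In macrophages ATF3 is known as a brake on inflammatory transcription and KLF4 as a factor of monocyte differentiation. Enzymatic dissociation of tissue is also known to induce immediate early and heat shock genes in the cells it frees.

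Of 45777 genes in the files, 13820 reached at least 1 TPM (a level scaled for gene length and for the library total) in at least 3 samples and were tested. A single gene, Klf4, passed the pooled comparison at an adjusted p under 0.05, which is 0.00724% of the genes tested, and it was lower after vesicles. Unadjusted p-values were under 0.05 for 1510 genes (10.9%), 750 higher (5.43%) and 760 lower (5.5%), where a uniform spread of p-values would give 691. In 295 genes (2.13%) the 6 vesicle samples did not overlap the 3 PBS samples, with 174 higher (1.26%) and 121 lower (0.876%). For a gene with no difference the probability of no overlap is 0.0238, so this share is no excess over chance. A stricter test asked for a difference from PBS in each source separately and in the same direction. By limma with Benjamini-Hochberg adjustment no gene passed it (smallest adjusted p = 0.944), and 136 genes (0.984%) had an unadjusted p under 0.05 in each source, 70 higher (0.507%) and 66 lower (0.478%). The 2 sources differed from each other in 817 genes (5.91%), of which 608 (4.4%) were lower with MSC-EV and 209 (1.51%) higher. That count rests on single samples: it was 0 without HEK-EV 2, MSC-EV 1 or MSC-EV 2, 1 without HEK-EV 1, 31 without HEK-EV 3 and 1369 without PBS 1, so each call between the sources given here is lost without any 1 of the first 3. Against the 3 PBS samples, the HEK-EV group had 495 genes (3.58%) at an unadjusted p under 0.05 and the MSC-EV group 3184 (23.0%). The HEK-EV count was below the 691 that a uniform spread of p-values would give, and the MSC-EV count was above it. Both comparisons use the same PBS samples.

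Klf4 encodes a zinc finger transcription factor of the Krüppel-like family and lies at chr4:55527137-55532475, minus strand (coordinates of the deposited files, mm10). Its level was 101, 109 and 106 TPM in the PBS samples, 70.0, 67.2 and 70.7 TPM in the HEK-EV samples and 36.9, 49.5 and 49.5 TPM in the MSC-EV samples. All 6 vesicle samples were below all 3 PBS samples, which the rule that named genes for description asked for. The HEK-EV samples lay between the other groups without overlap on either side. Klf4 fell by 0.90 on the log2(TPM + 1) scale (SE 0.0894; limma, adjusted p = 0.0338), to 0.545 times the PBS mean in TPM. The difference was -0.60 for HEK-EV and -1.21 for MSC-EV, on the same side of PBS. Between the sources the difference was -0.61 (95% interval -0.85 to -0.38; adjusted p = 0.0215, a call lost without HEK-EV 2, MSC-EV 1 or MSC-EV 2). Over 21 other settings the pooled difference lay between -0.997 and -0.819, and its adjusted p lay between 0.00124 and 0.823, under 0.05 in 8 of them. It lost its call without any 1 of PBS 2, PBS 3, HEK-EV 1, HEK-EV 2, HEK-EV 3, MSC-EV 2 or MSC-EV 3 (adjusted p 0.176, 0.344, 0.0898, 0.181, 0.0699, 0.0506 and 0.0537), while the difference stayed between -0.94 and -0.88.

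Atf3 encodes a bZIP factor that pairs with Jun proteins and is induced by stress and by Toll-like receptor signals (chr1:191170296-191183333, minus strand). Its level was 718, 667 and 758 TPM in the PBS samples, 431, 413 and 533 TPM in the HEK-EV samples and 419.9, 454 and 443 TPM in the MSC-EV samples. The highest vesicle sample, HEK-EV 3, was below the lowest PBS sample, as the naming rule asked. The 5 other vesicle samples lay close together. The pooled difference was -0.67 (SE 0.0824; limma, adjusted p = 0.0694), which missed the threshold. Atf3 had the smallest p of all genes in the test over both sources (6.83e-05, unadjusted), with differences of -0.64 for HEK-EV and -0.70 for MSC-EV. The sources differed by -0.06 with a 95% interval from -0.27 to 0.16, which bounds any difference between them to less than the drop from PBS. Over the same settings the pooled value lay between -0.73 and -0.53 and passed in 4, among them the fit without PBS 1 (adjusted p 0.0174) and the fit without HEK-EV 3 (0.0122).

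Jun, which encodes the AP-1 subunit c-Jun, was chosen for description after its values were seen. It stood at 419.7, 413 and 382 TPM in the PBS samples, 294, 286 and 343 TPM in the HEK-EV samples and 266, 277 and 338 TPM in the MSC-EV samples, and again no vesicle sample reached a PBS sample. Its differences were -0.40 and -0.47 for HEK-EV and MSC-EV (pooled -0.43, limma adjusted p = 0.22), and the interval of the difference between the sources was -0.30 to 0.16. Nr4a2, an orphan nuclear receptor gene, and Fosb, an AP-1 subunit gene, were chosen in the same way. The level of Nr4a2 was 10.6, 7.98 and 8.7 TPM in PBS, 5.8, 7.35 and 7.76 in HEK-EV and 6.23, 5.17 and 5.7 in MSC-EV samples. Fosb had 156, 159 and 146 TPM in PBS, 106, 138 and 143 TPM in HEK-EV and 71.9, 103 and 115 TPM in MSC-EV samples. In both genes the nearest HEK-EV sample came within a few percent of the lowest PBS sample, so their separation rests on a narrow gap.

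**Figure D1:**
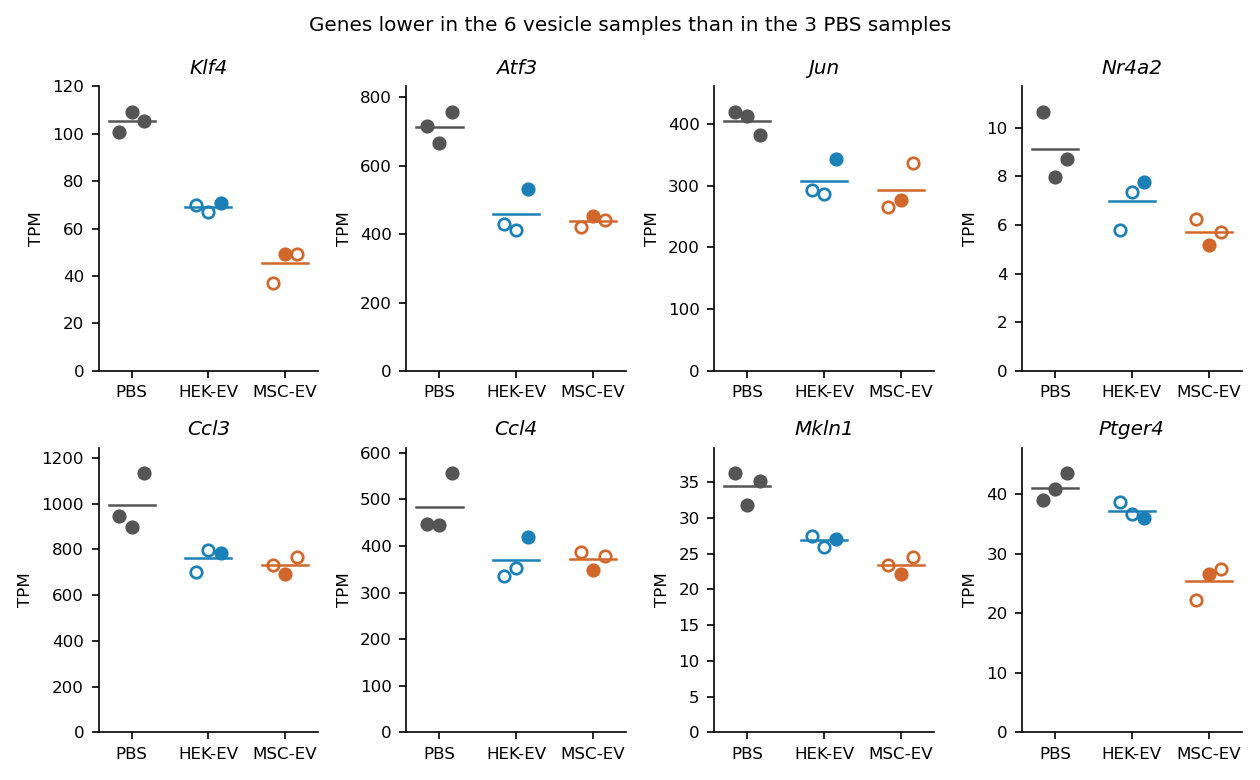
Level in TPM (vertical axis, from 0) of 8 genes in each of the 9 samples, by group; points are samples, horizontal lines are group means, and open points are samples with over 30 TPM summed over pancreatic acinar genes. Every vesicle point lies below every PBS point in all 8 genes, which the naming rule asked for in Klf4, Atf3, Mkln1 and Ptger4. Klf4 and Ptger4 show a further step down with MSC-EV, and Atf3, Jun, Ccl3 and Ccl4 do not.

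The promoters of Klf4, Atf3 and Jun are shown because these 3 genes had the largest drops among the transcription factors of the list when each gene is ranked by the smaller of its HEK-EV and MSC-EV differences. Each is the RefSeq sequence (GRCm38.p6) from 250 bases before to 50 after the gene's start, written 5′ to 3′ along the gene, which is on the minus strand in all 3. Capitals mark TGACG on either strand, the core that ATF and CREB proteins read. The Klf4 promoter (chr4:55532426-55532725) and the Atf3 promoter (chr1:191183284-191183583) hold it 1 time each, and the Jun promoter (chr4:95052173-95052472) does not hold it.
Klf4: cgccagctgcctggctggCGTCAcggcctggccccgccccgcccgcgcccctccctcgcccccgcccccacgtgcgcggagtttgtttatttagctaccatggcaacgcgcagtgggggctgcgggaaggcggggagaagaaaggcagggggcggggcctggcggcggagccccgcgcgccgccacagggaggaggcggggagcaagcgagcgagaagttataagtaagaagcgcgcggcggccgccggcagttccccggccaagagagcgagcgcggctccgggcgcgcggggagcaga
Atf3: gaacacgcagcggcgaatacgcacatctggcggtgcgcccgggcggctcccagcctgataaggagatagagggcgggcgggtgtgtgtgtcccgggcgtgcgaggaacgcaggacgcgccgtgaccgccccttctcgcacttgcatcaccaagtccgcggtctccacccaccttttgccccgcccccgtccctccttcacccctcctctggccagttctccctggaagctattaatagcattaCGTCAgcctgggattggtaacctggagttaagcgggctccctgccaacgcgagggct
Jun: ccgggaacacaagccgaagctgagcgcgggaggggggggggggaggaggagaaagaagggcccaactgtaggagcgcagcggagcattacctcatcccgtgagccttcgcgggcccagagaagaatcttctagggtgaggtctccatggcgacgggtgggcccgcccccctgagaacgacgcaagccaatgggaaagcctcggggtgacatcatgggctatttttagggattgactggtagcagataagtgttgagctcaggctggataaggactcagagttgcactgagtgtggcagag
TGACG was in 15 of the 24 promoters found for the immediate early genes (62.5%), in 21.0% of all 27025 promoters of the table and in 31.8% of the 9923 promoters of genes tested. TGANTCA, the classic AP-1 letters, was in 0 of those 24, in 7.93% of all promoters and in 5.32% of those of genes tested. Only exact letters were counted, so a promoter without a match may still hold a close variant. These matches describe letters in a window of 300 bases and show neither binding nor a cause.

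The immediate early list held 30 genes, of which 29 were tested. After vesicles 22 of them were lower and 7 higher, against 43.5% and 56.5% of all genes. The median difference was -0.29, against 0.02 for all genes. Over 21 other settings it lay between -0.46 (depth as a covariate) and -0.23 (without PBS 3). At an unadjusted p under 0.05, 16 were lower and 2 higher, against 5.5% and 5.43% of all genes. In 5 genes (Klf4, Atf3, Jun, Nr4a2 and Fosb) the samples did not overlap, all lower, against 0.876% of all genes. In 6 genes (those 5 without Fosb, plus Ier5 and Dusp2) both sources were below PBS at an unadjusted p under 0.05, against 0.478% of all genes. The list had been seen in these data before it was written, so its direction is a description and no independent evidence.

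The median over its 29 genes was -0.11 for HEK-EV, with 11 higher and 18 lower, and -0.47 for MSC-EV, with 5 higher and 24 lower. Among all genes 61.0% were higher with HEK-EV and 52.3% with MSC-EV. In 9 of the genes MSC-EV and HEK-EV differed at an adjusted p under 0.05, 8 of them lower with MSC-EV, against 5.91% and 4.4% of all genes. Fos, the gene of the AP-1 subunit c-Fos, is an example, at 1284, 1421 and 1611 TPM in the PBS samples, 1009.6, 1063 and 1322 TPM in the HEK-EV samples and 580.2, 593 and 839 TPM in the MSC-EV samples. HEK-EV 3 overlapped the PBS samples while the MSC-EV samples did not come near them, and the difference between the sources was -0.76 (limma, adjusted p = 0.0292). Ier5, which encodes a regulator of heat shock factor activity, had 190.1, 234 and 245 TPM in PBS, 176, 177 and 208 TPM in HEK-EV and 123, 135 and 137 TPM in MSC-EV samples, and the sources differed by -0.50 (adjusted p = 0.0297). Dusp2, a MAP kinase phosphatase gene, was lower in both (-0.31 for HEK-EV and -0.55 for MSC-EV; 95% interval of the difference -0.49 to 0.01).

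Not every immediate early gene was low. Egr1, a zinc finger factor induced by growth factor signals, was 0.47 in HEK-EV and -0.23 in MSC-EV relative to PBS, and the sources differed (adjusted p = 0.0352). Its level was 234, 312 and 350.3 TPM in the PBS samples, 388, 376 and 469.7 TPM in the HEK-EV samples and 273, 215 and 272 TPM in the MSC-EV samples. Here the pooled value of 0.12 averaged opposite directions and describes neither source. Nr4a3, a nuclear receptor gene close in sequence to Nr4a2, was 16.1, 11.4 and 13.7 TPM in the PBS samples, 11.9, 19.7 and 18.9 TPM in the HEK-EV samples and 36, 33.1 and 26.9 TPM in the MSC-EV samples. The MSC-EV samples stood above all others and HEK-EV overlapped PBS, and the sources differed by 0.91 (adjusted p = 0.0311). Nr4a2 and Nr4a3 thus lay on opposite sides of PBS. Dusp2, Egr1 and Nr4a3 were chosen after their values were seen.

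Heat shock and unfolded protein genes, which respond to protein damage, were lower in 16 of 20, with a median of -0.09 and 3 genes lower at an unadjusted p under 0.05, against 43.5%, 0.02 and 5.5% for all genes (Hspa1a -0.48, Hspa1b -0.47 and Herpud1 -0.23). Hspa1a and Hspa1b are near-identical copies whose reads may be split between them. Whether dissociation had a part in the immediate early values was not tested.

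**Figure D2:**
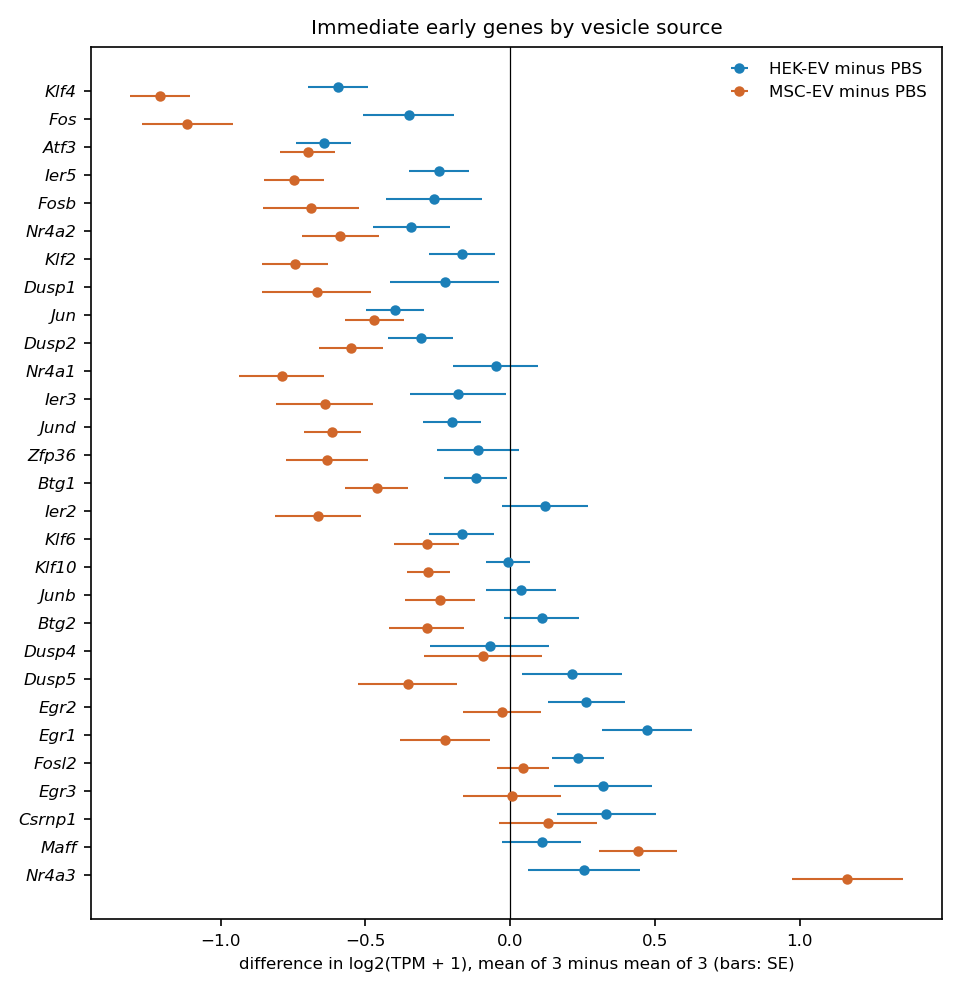
Difference from PBS in log2(TPM + 1) (horizontal axis) for the 29 immediate early genes tested, ordered by the pooled difference, with blue points for HEK-EV, orange points for MSC-EV and bars for the SE. Klf4, Atf3 and Jun lie to the left of 0 with both sources, Fos and Nr4a1 mainly with MSC-EV, and Egr1 lies on opposite sides.

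Other genes by the naming rule were lower with both sources, which the rule asked for. Mkln1, which encodes muskelin, a part of the CTLH ubiquitin ligase complex, had 36.2, 31.8 and 35.2 TPM in the PBS samples, 27.5, 26 and 27.1 TPM in the HEK-EV samples and 23.4, 22.1 and 24.5 TPM in the MSC-EV samples. The vesicle samples were all below PBS by 0.34 (HEK-EV) and 0.54 (MSC-EV) on the log2 scale (pooled -0.44, SE 0.0605; limma, adjusted p = 0.0867). Snord1b, a small nucleolar RNA within the host transcript Snhg16, was 6.26, 5.36 and 4.3 TPM in PBS, 2.0, 2.81 and 2.88 TPM in HEK-EV and 2.97, 2.32 and 3.21 TPM in MSC-EV samples (pooled -0.77, adjusted p = 0.169). Reads of so short a gene and of its host cannot be told apart here. Pim3, a serine/threonine kinase gene chosen after its values were seen, had 21.8, 28.3 and 22.9 TPM in PBS, 15, 17.1 and 19.5 TPM in HEK-EV and 14.4, 14.3 and 18.3 TPM in MSC-EV samples, and differed from PBS by -0.48 and -0.61.

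Ptger4 and Phf11c, named by the same rule, were low mainly with MSC-EV. Ptger4, the EP4 receptor for prostaglandin E2, had 38.9, 40.8 and 43.4 TPM in the PBS samples, 38.6, 36.7 and 36 TPM in the HEK-EV samples and 22.2, 26.6 and 27.4 TPM in the MSC-EV samples. The HEK-EV samples lay just below PBS (-0.14, unadjusted p = 0.123, limma) and the MSC-EV samples well below (-0.68), and the sources differed by -0.53 (adjusted p = 0.0205). For Phf11c, a gene of a PHD finger family with near copies and a gene overlap, the differences were -0.45 and -1.21, and the sources differed as well (adjusted p = 0.0359).

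Among genes that were higher, Ankrd33b and Tcf4 had like values with both sources. The naming rule asked that all 6 vesicle samples lie above all PBS samples. Ankrd33b encodes an ankyrin repeat protein (chr15:31291479-31367802, minus strand). Its level was 7.08, 6.03 and 7.21 TPM in the PBS samples, 9.98, 9.77 and 11.2 TPM in the HEK-EV samples and 11, 11 and 9.79 TPM in the MSC-EV samples. All 6 vesicle samples exceeded all PBS samples, by 0.54 for HEK-EV and 0.58 for MSC-EV (pooled 0.56, SE 0.0835; limma, adjusted p = 0.105), and the interval of the difference between the sources was -0.18 to 0.25. Tcf4, an E-box binding factor best known for plasmacytoid dendritic cells, was 8.32, 8.07 and 9.32 TPM in the PBS samples, 16.9, 11.4 and 16.4 TPM in the HEK-EV samples and 14.6, 12.7 and 18.6 TPM in the MSC-EV samples. Its vesicle samples varied more, from 11.4 to 18.6 TPM, and none reached down to PBS (pooled 0.74, SE 0.144, adjusted p = 0.206; sources 0.72 and 0.75). Crat, the mitochondrial and peroxisomal carnitine acetyltransferase, was modestly higher with both (0.21 and 0.32; adjusted p = 0.228). None of the 3 passed the threshold.

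**Figure D3:**
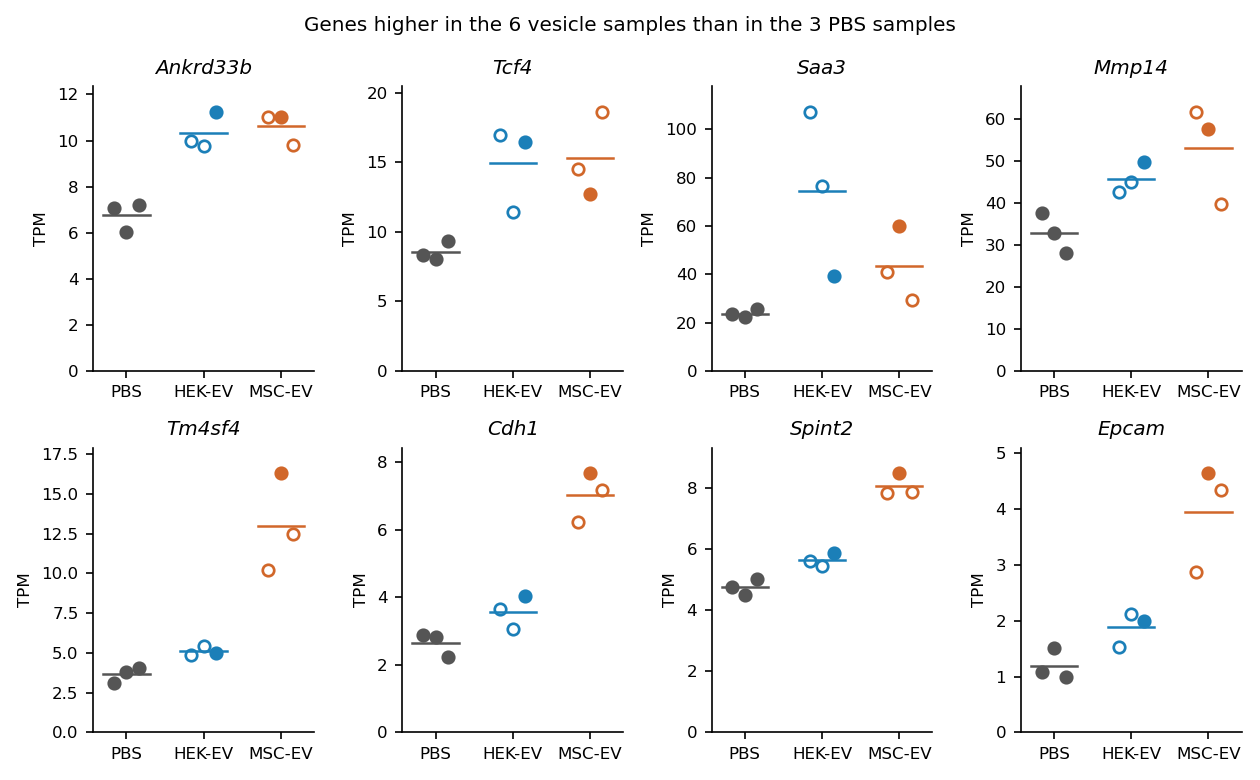
Level in TPM (vertical axis, from 0) of 8 genes in each of the 9 samples, by group; points are samples, horizontal lines are group means, and open points are samples with over 30 TPM summed over pancreatic acinar genes. In the upper row the vesicle groups sit at like levels above PBS except for Saa3, which is widely spread; in the lower row HEK-EV lies just above PBS and MSC-EV far above both.

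Chemokines and cytokines gave no common direction. Ccl3 and Ccl4, chemokines that draw in leukocytes, were lower with both sources. Ccl3 was 945, 900.1 and 1132 TPM in the PBS samples, 703, 796 and 784 TPM in the HEK-EV samples and 734, 691 and 766 TPM in the MSC-EV samples, and the vesicle groups were level with each other (-0.38 and -0.44; pooled -0.41, limma adjusted p = 0.206). Ccl4 was also below PBS in all vesicle samples (-0.38 and -0.37), with pooled -0.38 (adjusted p = 0.288). The annotation gives these neighbours overlapping positions on opposite strands, and the sources used here do not say if counting used the strand, so their values may not be separate. Of 21 chemokines tested, 8 were higher and 13 lower, with 3 on each side at an unadjusted p under 0.05 and 2 without overlap, both lower. Of all genes 5.43% were higher and 5.5% lower at that p, and 0.876% were lower without overlap. The median, -0.07, changed sign in 4 of 21 settings. Ccl17, a ligand of CCR4, was 1.13, 1.04 and 0.525 TPM in PBS, 2.58, 3.46 and 0.414 TPM in HEK-EV and 4.65, 3.18 and 4.16 TPM in MSC-EV samples, where HEK-EV 3 was the lowest of all. Cxcl16, a scavenger receptor and chemokine gene, differed by 0.23 (adjusted p = 0.381).

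Of 18 inflammatory cytokine and mediator genes tested, 10 were higher and 8 lower (56.5% and 43.5% of all genes), with a median of 0.08 that changed sign in 2 settings. At an unadjusted p under 0.05, 3 were higher and 3 lower (5.43% and 5.5% of all genes). Saa3, an acute phase protein made by macrophages and other cells, was 23.5, 22.1 and 25.5 TPM in the PBS samples, 107, 76.5 and 39.2 TPM in the HEK-EV samples and 41, 60.0 and 29.4 TPM in the MSC-EV samples. Each vesicle sample exceeded PBS, yet the vesicle samples ranged from 29.4 to 107 TPM, and the pooled difference of 1.14 had an SE of 0.293 (limma, adjusted p = 0.297). Il1rn, the antagonist of the IL-1 receptor, was 62.9, 63.9 and 77.7 TPM in PBS, 103, 92.9 and 88.6 TPM in HEK-EV and 112, 95.8 and 67.4 TPM in MSC-EV samples, with MSC-EV 3 inside the PBS range (0.47 and 0.40; pooled adjusted p = 0.347). Saa3 and Il1rn were the list's 2 genes that were above PBS with each source at an unadjusted p under 0.05 (0.507% of all genes). Lif, an IL-6 family cytokine, was near the filter, at 1.2, 1.18 and 1.79 TPM in PBS and from 0.54 to 1.01 TPM after vesicles (pooled -0.42, adjusted p = 0.329). Il18 was -0.20 with HEK-EV and -0.57 with MSC-EV. The classical mediators Tnf (-0.02) and Il6 (-0.04) had pooled differences near 0. Il1b, chosen after its values were seen, was 1319, 1546 and 2158 TPM in PBS, 2236, 2229 and 2963 TPM in HEK-EV and 1871, 1732 and 1496 TPM in MSC-EV samples, so that the HEK-EV samples were the highest and MSC-EV overlapped PBS (0.58 and 0.05; difference between sources adjusted p = 0.114). NF-kB target and feedback genes were higher in 19 of 20 with HEK-EV (61.0% of all genes; median 0.07) and in 8 of 20 with MSC-EV (52.3%; median -0.16). Pooled, 9 were higher and 11 lower, with 1 higher at an unadjusted p under 0.05, near the 5.43% of all genes.

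Mmp14, a membrane matrix metalloproteinase, and Slc7a11, the cystine transporter of glutathione synthesis, were higher with both sources; both were picked with their values in view. Mmp14 was 37.6, 32.8 and 28 TPM in the PBS samples, 42.6, 44.9 and 49.8 TPM in the HEK-EV samples and 61.7, 57.7 and 39.7 TPM in the MSC-EV samples, without overlap (0.48 and 0.66; pooled 0.57, limma adjusted p = 0.288). Slc7a11 was 3.84, 3.21 and 4.39 TPM in PBS, 7.88, 5.39 and 4.35 TPM in HEK-EV and 9.18, 8.92 and 5.67 TPM in MSC-EV samples, with HEK-EV 3 inside the PBS range. Mthfd2, a mitochondrial folate enzyme on the list of ATF4 targets and picked likewise, was lower with both (-0.19 and -0.32), without overlap. Slc7a11 and Mthfd2, both ATF4 targets, lay on opposite sides. Of that list's 13 genes 8 were higher and 5 lower, near the 56.5% and 43.5% of all genes. At an unadjusted p under 0.05, 1 was higher and 2 were lower (5.43% and 5.5% of all genes).

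Interferon response genes were lower in 25 of 26, and 19 of the 26 had an unadjusted p under 0.05, all lower, against 43.5% and 5.5% of all genes. The median was -0.51 pooled, -0.21 for HEK-EV and -0.76 for MSC-EV. In no gene of the list did the 6 samples lie below the 3 without overlap (0.876% of all genes), and Bst2, a surface antiviral protein, was the 1 gene below PBS with each source at an unadjusted p under 0.05 (0.478% of all genes). Mx2, an antiviral GTPase, had 25.8, 40.3 and 32.9 TPM in the PBS samples, 28.5, 23.6 and 25.6 TPM in the HEK-EV samples and 19.7, 16.1 and 22 TPM in the MSC-EV samples. PBS 1 lay inside the vesicle range, and PBS 2 was the highest of all samples. Bst2 was 434, 543 and 504 TPM in PBS, 412, 375 and 443 TPM in HEK-EV and 427, 388 and 344 TPM in MSC-EV samples, and there HEK-EV 3 overlapped PBS 1. Oas1a, which senses double-stranded RNA, and Xaf1, an apoptosis cofactor, had pooled differences of -0.37 and -0.28 (limma, adjusted p = 0.297 and 0.318). No gene of the list differed between the sources at an adjusted p under 0.05. The list's median was -0.75 without PBS 1 and -0.28 without PBS 2.

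Ly6C-high monocyte markers, genes of freshly recruited monocytes, were lower in all 15 genes tested, 8 of them at an unadjusted p under 0.05 (43.5% and 5.5% of all genes). The median was -0.83 with MSC-EV, with all 15 lower, and -0.08 with HEK-EV, with 6 higher and 9 lower. In 7 of the genes MSC-EV was lower than HEK-EV at an adjusted p under 0.05 by limma (4.4% of all genes). Gm9733 had 139.9, 212 and 207 TPM in PBS, 189.9, 156 and 177 TPM in HEK-EV and 86.6, 104 and 97.3 TPM in MSC-EV samples, and the sources differed by -0.85 (limma, adjusted p = 0.0233). S100a4, a calcium binding protein, was 1613, 2086 and 2499.9 TPM in PBS, 1793, 1654 and 1753 TPM in HEK-EV and 993, 1392 and 1267 TPM in MSC-EV samples. Ifi27l2a and Ms4a4c differed from PBS by -0.37 and -0.65. The summed level of the list was 26537 to 36220 TPM in PBS, 28052 to 30078 TPM in HEK-EV and 21095 to 26416 TPM in MSC-EV samples. In bulk RNA fewer cells of a type and less RNA per cell cannot be told apart.

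Lipid-associated macrophage genes, which mark macrophages that take up lipid and debris, were higher in 17 of 18, 9 of them at an unadjusted p under 0.05 (56.5% and 5.43% of all genes). The median was 0.34 pooled, which was 0.18 without PBS 2 and 0.56 with depth as a covariate. It was 0.05 for HEK-EV, with 10 higher and 8 lower, and 0.60 for MSC-EV, with 17 higher and 1 lower. Of all genes 61.0% were higher with HEK-EV and 52.3% with MSC-EV. Between the sources 9 genes were higher with MSC-EV at an adjusted p under 0.05 by limma (1.51% of all genes) and 1 was lower (4.4%). Apoe, the lipid transport protein, was the 1 gene above PBS with each source at an unadjusted p under 0.05 (0.507% of all genes). Its level was 4197, 6431 and 5324 TPM in the PBS samples, 7046, 7588 and 6195 TPM in the HEK-EV samples and 12919.8, 11487 and 11895 TPM in the MSC-EV samples. The HEK-EV samples overlapped PBS 2, the MSC-EV samples were above all others, and the sources differed by 0.80 (limma, adjusted p = 0.0241). The lipid chaperone Fabp5 stood at 394, 146 and 167 TPM in PBS, 243, 228 and 232 TPM in HEK-EV and 1121, 1039 and 608 TPM in MSC-EV samples, with PBS 1 above every HEK-EV sample. Ctsb and Ctsd, lysosomal proteases, had HEK-EV differences of 0.08 and 0.08 and MSC-EV differences of 0.60 and 0.75. The 13 genes of mitochondrial DNA were all higher in the pooled comparison, with medians of 0.01 for HEK-EV and 0.43 for MSC-EV, and 8 differed between the sources (5.91% of all genes).

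**Figure D4:**
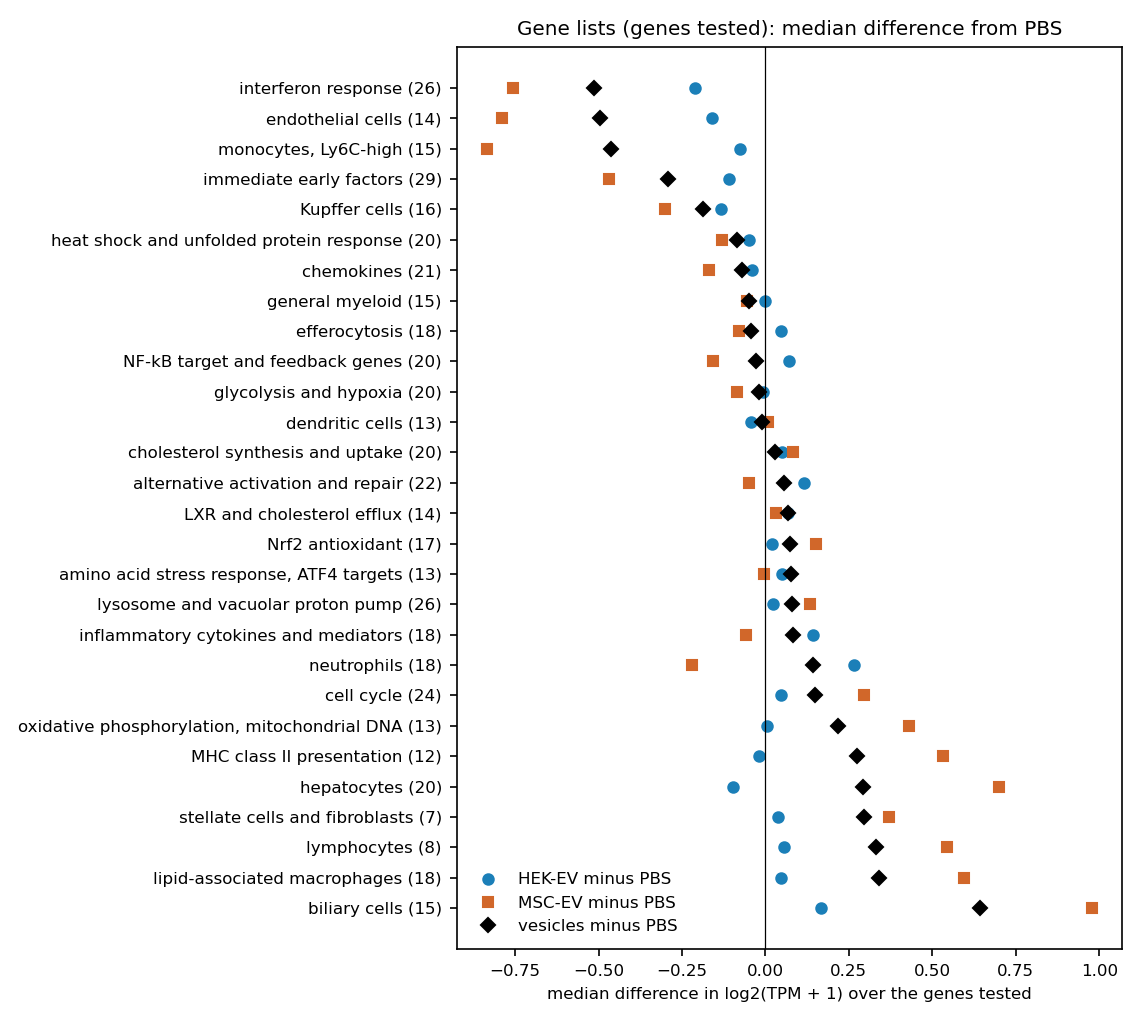
Median difference in log2(TPM + 1) from PBS (horizontal axis) over the genes tested of each list, with circles for HEK-EV, squares for MSC-EV and diamonds for the pooled comparison; the number of genes tested is in brackets, and the acinar and erythroid lists are left out. HEK-EV medians lie between -0.21 and 0.27, and the lists farthest from 0 in the pooled comparison take most of their distance from MSC-EV.

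Tm4sf4, Cdh1 and Spint2, which were among the 6 higher genes by the naming rule, stood highest with MSC-EV. Tm4sf4, a tetraspanin-like protein of biliary and intestinal epithelium, was 3.08, 3.82 and 4.05 TPM in the PBS samples, 4.86, 5.41 and 5.0 TPM in the HEK-EV samples and 10.2, 16.3 and 12.5 TPM in the MSC-EV samples. HEK-EV samples were above PBS by a small margin and MSC-EV samples by far more (0.39 and 1.57; between sources 1.18, limma adjusted p = 0.0205). Cdh1, the epithelial adhesion protein E-cadherin, had 2.9, 2.82 and 2.22 TPM in PBS, 3.64, 3.06 and 4.02 TPM in HEK-EV and 6.23, 7.66 and 7.18 TPM in MSC-EV samples, and Spint2, a Kunitz protease inhibitor, had 4.74, 4.48 and 5.01 TPM in PBS, 5.59, 5.44 and 5.85 TPM in HEK-EV and 7.83, 8.46 and 7.85 TPM in MSC-EV samples. In all 3 the vesicle samples were above all PBS samples, as the naming rule asked. The sources differed (limma, adjusted p = 0.0205 for Cdh1 and 0.0248 for Spint2). Of 15 biliary markers tested all 15 were higher, 12 at an unadjusted p under 0.05, 3 without overlap (Tm4sf4, Epcam and Krt18), and 11 were higher with MSC-EV than with HEK-EV at an adjusted p under 0.05. The shares of all genes for these 4 counts were 56.5%, 5.43%, 1.26% and 1.51%. Of the 15, 4 (Prom1 among them) reached 1 TPM in vesicle samples alone, so the filter kept them through the side where they were high. Of the 11 others all 11 were higher, 8 at that unadjusted p and 7 called between the sources. The median over all 15 was 0.17 for HEK-EV and 0.98 for MSC-EV. Epcam, an epithelial adhesion molecule, was 1.08, 1.51 and 0.989 TPM in PBS, 1.52, 2.11 and 2.0 TPM in HEK-EV and 2.87, 4.64 and 4.35 TPM in MSC-EV samples, and Prom1, an epithelial and progenitor surface protein, was 0.386, 0.372 and 0.555 TPM in PBS, 0.554, 0.777 and 1.13 TPM in HEK-EV and 2.57, 3.15 and 2.76 TPM in MSC-EV samples. Ambp, a secreted precursor that hepatocytes also make, was 0.12 with HEK-EV and 1.26 with MSC-EV. Krt19 and Krt18, keratins of bile duct cells chosen after their values were seen, were 0.15 and 0.26 with HEK-EV and 1.54 and 0.96 with MSC-EV. The summed level of the list, in which Spp1 is also made by macrophages, was 1031 to 2013 TPM in PBS, 1216 to 1525 TPM in HEK-EV and 2153 to 2778 TPM in MSC-EV samples. Of 20 hepatocyte markers, Cps1 reached 1 TPM in vesicle samples alone, and of the 19 others 17 were higher too and 3 had an unadjusted p under 0.05 (56.5% and 5.43% of all genes), with medians over the 20 of -0.10 for HEK-EV and 0.70 for MSC-EV and 7 called higher with MSC-EV than with HEK-EV (1.51% of all genes). Their summed level was 537 to 626 TPM in PBS, 438 to 650.1 TPM in HEK-EV and 816 to 987 TPM in MSC-EV samples, and their part in the biliary values was not tested.

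Endothelial markers were lower in all 14 genes tested, 6 of them at an unadjusted p under 0.05 (43.5% and 5.5% of all genes), with medians of -0.16 for HEK-EV and -0.79 for MSC-EV. Fcgr2b, an inhibitory Fc receptor of sinusoidal endothelium that myeloid cells also carry, was 0.01 and -0.53 with HEK-EV and MSC-EV (difference between sources limma adjusted p = 0.0205). Egfl7, Bmp2 and Clec4g had pooled differences of -0.58, -0.54 and -0.60 (adjusted p = 0.417, 0.438 and 0.438). Clec4g, a lectin of sinusoidal endothelium, was 93.2, 91.7 and 86.5 TPM in PBS, 49, 92.2 and 108 TPM in HEK-EV and 43.8, 32.1 and 62.2 TPM in MSC-EV samples, so that HEK-EV 3 was above all PBS samples while HEK-EV 1 was among the MSC-EV samples. The summed endothelial level was 811 to 903 TPM in PBS, 683 to 977 TPM in HEK-EV and 436 to 632 TPM in MSC-EV samples.

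Transcripts of pancreatic acinar cells, which make digestive enzymes, were high in 4 of the 6 vesicle samples and at the PBS level in the others. Their summed level was 13.3 to 15.0 TPM in PBS, 43.8, 1315 and 15.4 TPM in the HEK-EV samples and 170.2, 13.8 and 3673 TPM in the MSC-EV samples. Ctrb1, a chymotrypsinogen, was listed at 0 in all PBS samples, HEK-EV 3 and MSC-EV 2, and at 4.43, 179, 20.3 and 536 TPM in HEK-EV 1, HEK-EV 2, MSC-EV 1 and MSC-EV 3. Amy2a5, Pnlip and Prss2, the genes of amylase, a lipase and a trypsinogen, had the same 4 samples high. Of the 19 acinar genes tested, 17 reached 1 TPM in vesicle samples alone, so the filter fixed their direction, and none of the 19 had an unadjusted p under 0.05. The summed acinar level was near that of PBS in HEK-EV 3 and MSC-EV 2. These samples had 70.7 and 49.5 TPM of Klf4, 533 and 454 TPM of Atf3 and 11.2 and 11 TPM of Ankrd33b. The rule that named these genes asked for no overlap between vesicle and PBS samples, so it fixed the side on which these samples lie. With HEK-EV 3 and MSC-EV 2 alone, 1 sample per vesicle group, Klf4 differed from PBS by -0.82 and Atf3 by -0.53. The part of acinar RNA in these values was not tested.

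The isolated cells carried myeloid RNA in every sample. Itgam, the gene of CD11b, was 289, 324 and 377 TPM in the PBS samples, 339, 342 and 434 TPM in the HEK-EV samples and 196, 235 and 255 TPM in the MSC-EV samples. HEK-EV overlapped PBS and MSC-EV was lower than HEK-EV by 0.70 (limma, adjusted p = 0.0257). Ptprc, the pan-leukocyte antigen CD45, was 0.07 with HEK-EV and -0.46 with MSC-EV, and the sources differed (adjusted p = 0.0207). Cd68, a macrophage lysosomal protein, was -0.01 and 0.32, and Adgre1, the F4/80 antigen, was 0.18 and 0.09. Sirpa, the gene of the CD47 receptor SIRP alpha, was 768, 783 and 703 TPM in PBS, 835, 771 and 775 TPM in HEK-EV and 804, 778 and 807 TPM in MSC-EV samples (pooled 0.08, adjusted p = 0.601; 95% interval -0.04 to 0.20). Its ligand gene Cd47 had a pooled difference of -0.18 (adjusted p = 0.452).

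Depth could be read only as a relative value, as coverage divided by FPKM: 5.28 to 6.32 in PBS, 6.25 to 6.47 in HEK-EV and 6.58 to 6.84 in MSC-EV samples (two-sided exact permutation test of 6 against 3, p = 0.0714, adjusted 0.333 over 14 measures). PBS 1 had the lowest ratio of all samples. The share of TPM from mitochondrial genes was 5.44% to 6.48% in PBS, 5.74% to 6.29% in HEK-EV and 7.55% to 7.90% in MSC-EV samples. Of the 14 sample measures (depth, RNA make-up and summed levels of marker lists) the smallest adjusted p was 0.333, and the smallest p that 6 against 3 allows is 0.0238 before adjustment. The part of depth and of other cells in the gene values above was not tested beyond the values given.

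The count of called genes depended on single samples. Without PBS 1 it was 462 (219 higher, 243 lower), without HEK-EV 3 or MSC-EV 1 it was 1 each, and without any other sample it was 0. The 1 gene was Atf3 without HEK-EV 3, and Klf4 without MSC-EV 1, where Klf4 also passed the test over both sources. With sample weights estimated from the data it was 2527 and with depth as a covariate 289.

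**Figure D5:**
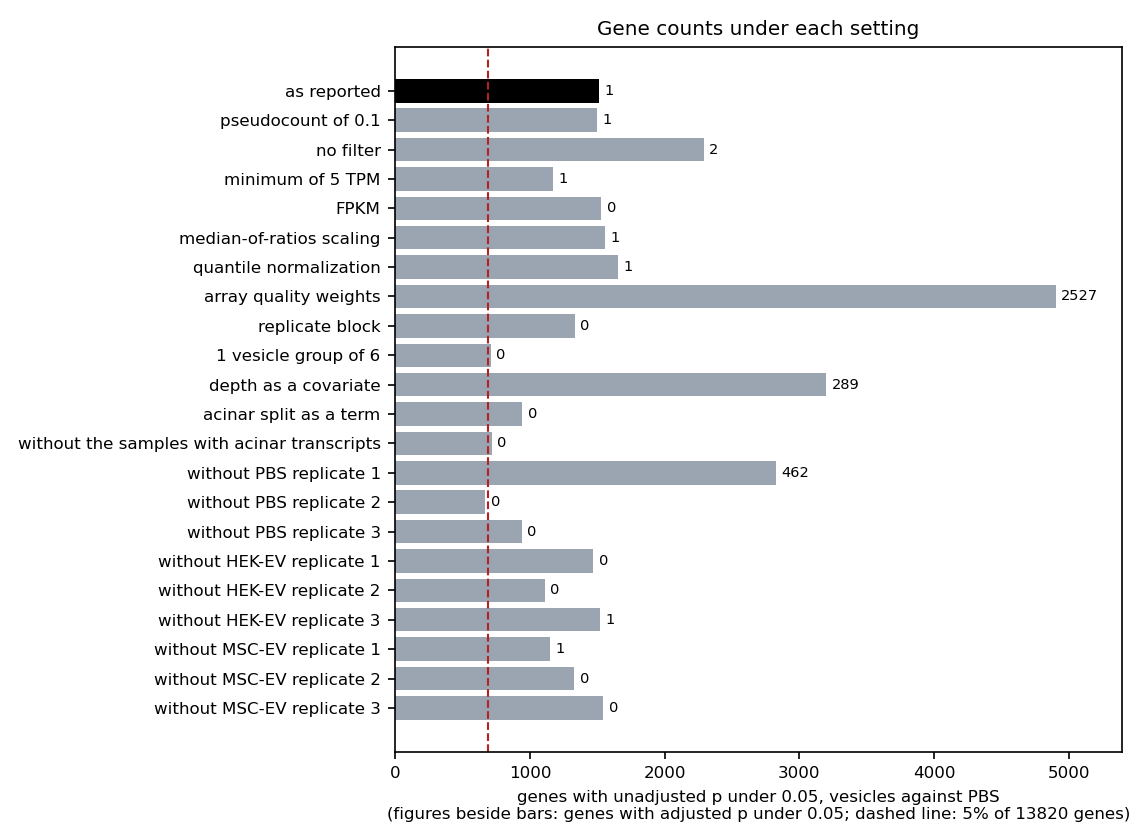
Number of genes with an unadjusted p under 0.05 for vesicles against PBS (horizontal axis, from 0) as reported (black) and under each alternative (grey); the numbers beside the bars count genes whose adjusted p was under 0.05. The dashed line is 5% of the 13820 genes of the reported test. Array weights, depth as a covariate and leaving out PBS 1 give the longest bars and the 3 largest adjusted counts (2527, 289 and 462).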

How the data were processed

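RNA of liver CD11b+ cells was extracted with Trizol and made into TruSeq Stranded mRNA libraries, per the labels' protocols. HISAT2 2.1.0, StringTie and mm10 are named in the submitters' processing notes, which do not give their settings. Each sample had 1 deposited table of genes. The deposited TPM add up to 1000000 in each sample, FPKM deposited by the authors served as an alternative, and coverage, the mean read signal per gene per the file headers, served only for relative depth. Read counts were not used here, so intervals and floors that need counts were not computed, and depth in reads is unknown. Whether counting used strand is not stated.

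Values of the same gene ID were summed. Symbols came from RefSeq (GRCm38.p6), matched by gene ID for 45679 of 45777 IDs, and 96.4% of matched genes had the same start and end there. Genes that reached 1 TPM in 3 or more of 9 samples were tested as log2(TPM + 1) in R 4.3.3 with limma 3.58.1 (eBayes with a trend after lmFit and contrasts.fit; all 9 samples in 1 fit; two-sided; Benjamini-Hochberg over all genes tested; threshold 0.05), which was tested on simulated data. A fold on this scale understates the change of low genes. The test over both sources took the larger of the HEK-EV and MSC-EV p-values where both had the same sign. Sample measures had exact permutation tests (SciPy 1.17.1).

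Named genes were, per direction, the 6 of smallest p with no overlap between the 6 and 3 samples, at least 5 TPM in the higher side and a regular symbol, since fewer than 3 genes of a direction passed, then up to 4 of smallest p of each list described, and Itgam, Ptprc, Sirpa, Cd47, Cd68 and Adgre1. Members and lists were chosen with earlier results of these data known. Alternatives were another pseudocount, 2 other filters, FPKM, 2 scalings, sample weights, the replicate number as a block, 1 vesicle group of 6, depth as a covariate and each sample left out. After the data were seen, a term for samples with over 30 TPM of acinar transcripts, and leaving those samples out, were added.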

Additional observations from a re-analysis of the deposited data

Results flagged for a closer look

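Among the 6 vesicle samples, 1 sample stood apart from the rest by Dixon's test in 9 of the 83 sets of 6 values examined. Chance gives about 1 in 20 for independent sets, which these are not, so the count cannot be judged against chance. The 6 values of a set also come from 2 vesicle groups, which Dixon's test does not take into account. Of the 9, 5 are acinar values of the same sample, MSC-EV 3, and are not independent, and those 4 acinar genes reached 1 TPM in vesicle samples alone. HEK-EV 3 had the highest Atf3, at 533 TPM, and MSC-EV 2 had the lowest Adgre1, at 386 TPM. MSC-EV 3 was highest for the acinar genes Ctrb1 (536 TPM), Amy2a5 (491 TPM), Pnlip (347 TPM) and Prss2 (205 TPM) and for the summed acinar level (3673 TPM). MSC-EV 2 was highest for Cyp2e1, a hepatocyte cytochrome, at 8.60 TPM. MSC-EV 1 was lowest for Hba-a1, a hemoglobin chain, at 0.165 TPM, and Hba-a1 reached 1 TPM in PBS samples alone. Cyp2e1 and Hba-a1 were picked with their values in view.

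For genes described above, the effect of the vesicles against PBS differed between the sources by limma at an adjusted p under 0.05 as follows. Values are MSC-EV minus HEK-EV on the log2(TPM + 1) scale. Among them, Itgam, Ptprc and Cd68 were named apart from the pooled result. Egr1, Nr4a3, Krt18 and Krt19 were chosen after their values were seen. Higher with MSC-EV were genes of the biliary list and others, by 1.18 for Tm4sf4, 0.81 for Cdh1, 0.45 for Spint2, 1.08 for Prom1 (which reached 1 TPM in vesicle samples alone), 0.77 for Epcam, 1.14 for Ambp, 0.70 for Krt18 and 1.39 for Krt19. Macrophage lipid and lysosome genes were higher too, by 0.80 for Apoe, 1.92 for Fabp5, 0.52 for Ctsb, 0.67 for Ctsd and 0.33 for Cd68, as was Nr4a3 by 0.91. Lower with MSC-EV were the immediate early genes Klf4 (-0.61), Fos (-0.76), Ier5 (-0.50) and Egr1 (-0.70). So were Ptger4 (-0.53), Phf11c (-0.76), Itgam (-0.70), Ptprc (-0.53), Gm9733 (-0.85), Ifi27l2a (-0.47) and Fcgr2b (-0.54). All of these calls are lost when HEK-EV 2, MSC-EV 1 or MSC-EV 2 is left out, where 0 genes passed.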

How the results depend on the processing

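No value changed sign after being called, but Klf4 was the only gene called in the pooled comparison as reported. Among values not called, the sign changed in 2 settings for Egr1 and in 1 for Il1b. Several list medians changed sign too, that of the NF-kB genes in 2 settings and that of the chemokines in 4. Of the values compared, 1333 of 1440 gene values and 575 of 608 list values kept their side of the threshold or their size. For every gene but Klf4 a kept side means only that the gene stayed uncalled, so this count does not measure robustness. Of the other gene values, 94 gained a call and 13 lost it. The count of called genes in the pooled comparison was 1 (0 higher, 1 lower). It was 2 without a filter (1 higher), neither of them Klf4, 2527 with array quality weights (1325 higher, 1202 lower) and 289 with depth as a covariate (164 higher, 125 lower). It was 0 with FPKM, with 1 vesicle group of 6, with the acinar split as a term and without the samples with acinar transcripts, with 0 lower in each. Leaving out 1 sample at a time gave 0 to 462 (0 to 219 higher, 0 to 243 lower), and 462 came without PBS 1. The test over both sources gave 0 to 1 on leaving out 1 sample, with 1 without MSC-EV 1. MSC-EV against HEK-EV gave 817, and 387 without a filter, 459 with FPKM, 512 with median-of-ratios scaling, 2081 with array quality weights, 1449 with depth as a covariate and 0 without the samples with acinar transcripts, which leaves 1 sample per vesicle group. Leaving out 1 sample gave 0 to 1369, with 1369 without PBS 1, 1 without HEK-EV 1, 31 without HEK-EV 3 and 0 without HEK-EV 2, MSC-EV 1 or MSC-EV 2. A lone sample is assumed to vary like the other groups. The cause of these changes was not tested. Samples with the same replicate number did not deviate together (correlations from -0.50 to 0.058), so the numbers were not taken as pairs. With the replicate block the pooled count was 0 (0 lower), that for MSC-EV against HEK-EV was 448 and that for both sources was 0. Depth in reads is unknown, which limits what can be said of genes near 1 TPM.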
